A study of Mus musculus with 4 samples.

Results

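The 10 genes described here encode subunits of RNA polymerase I (Pol I) and the factors that bring this enzyme to the ribosomal RNA genes (rDNA). They were chosen by name, and each had 1 of the 18169 rows of the deposited table. RNA was sequenced from primary neural stem/progenitor cells (NSCs), grown from the brain tissue around the ventricles of individual neonatal C57BL/6 mice in a proliferation medium with EGF and FGF2 and with no other treatment. There were 2 cultures from wild-type (+/+) mice and 2 from mice of an existing line deficient in the chromatin remodeler Chd5 (Chd5-/-). The growth protocol gives postnatal day 1 for all 4 cultures, whereas the age entries give days 1 and 2 for +/+ replicates 1 and 2 and days 3 and 4 for Chd5-/- replicates 1 and 2. By these entries, age and genotype cannot be told apart. Nothing in the labels says whether the mice were littermates, so p-values measure the spread between these samples only.

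Pol I transcribes the long precursor of the large ribosomal RNAs in the nucleolus, and this step sets the pace at which a growing cell makes ribosomes. The promoter of each rDNA repeat is bound by the upstream binding factor UBF, encoded by Ubtf, and by the selectivity factor SL1, in which Taf1b, Taf1c and Taf1d join Taf1a and the TATA-binding protein Tbp. Rrn3 (TIF-IA) links initiation-competent Pol I to SL1 and responds to growth signals. Polr1a and Polr1b form the catalytic center, Polr1e belongs to a Pol I-specific heterodimer, and Polr1c and Polr1d are built into RNA polymerase III (Pol III) as well, which makes transfer RNAs and the smallest ribosomal RNA.

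In Chd5-/- NSCs, Polr1c, Polr1d, Ubtf and Taf1c were higher in both samples than in both +/+ samples, Taf1b was lower in both, and the ranges of the other 5 genes overlapped between genotypes. Such separation was common in these samples: of all 12576 rows tested, 46.3% were higher and 13.0% lower in both Chd5-/- samples, beside 3 and 1 of the 9 Pol I genes tested. The mean level of Polr1c was 2.54 times, that of Polr1d 1.64 times and that of Ubtf 1.59 times the +/+ mean. Polr1a and Polr1b, which form the catalytic center, were at 1.04 and 1.21 times the +/+ mean. No gene of the 10 passed an adjusted threshold of 0.05 in limma's test of log2(TPM + 1), where TPM is the transcript abundance per library scaled for length and depth. In the plot of levels by sample, Polr1c, Polr1d, Ubtf and Taf1c separate the genotypes, and Polr1a and Polr1b do not. Among the 9 tested, which leave out Taf1c, the share that separated was not above that of all rows.

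**Figure D1:**
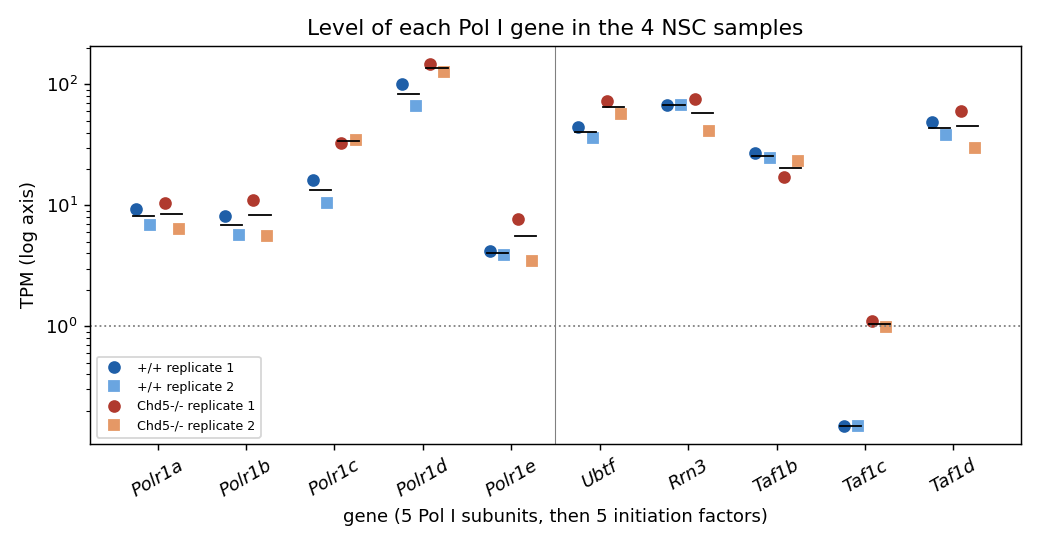
TPM (log axis) of the 5 Pol I subunit genes and the 5 initiation factor genes in +/+ replicates 1 and 2 and Chd5-/- replicates 1 and 2. Each point is 1 sample, horizontal bars are the means of 2 samples and the dotted line is at 1 TPM. Both Chd5-/- points lie above both +/+ points for Polr1c, Polr1d, Ubtf and Taf1c, and below them for Taf1b.

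The stretches around the start sites of 5 of these genes are shown. Of the 4 genes that were higher in both Chd5-/- samples, 2 are included (Polr1c and Taf1c), beside 3 that were not higher in both (Polr1a, Taf1b and Rrn3). Each is a RefSeq sequence of GRCm38.p6, 300 bases long, with 250 bases before and 50 after the start, written on the strand of the gene. Capitals mark matches to the ETS factor motif CCGGAAG on either strand. Polr1d and Ubtf, also higher in both Chd5-/- samples, are not shown, and no promoter of theirs holds this motif. The positions are chr17:46247996-46248295 (minus strand) for Polr1c, chr8:119605157-119605456 (minus strand) for Taf1c, chr6:71908803-71909102 (plus strand) for Polr1a, chr12:24498331-24498630 (plus strand) for Taf1b and chr16:13780449-13780748 (plus strand) for Rrn3.
Polr1c: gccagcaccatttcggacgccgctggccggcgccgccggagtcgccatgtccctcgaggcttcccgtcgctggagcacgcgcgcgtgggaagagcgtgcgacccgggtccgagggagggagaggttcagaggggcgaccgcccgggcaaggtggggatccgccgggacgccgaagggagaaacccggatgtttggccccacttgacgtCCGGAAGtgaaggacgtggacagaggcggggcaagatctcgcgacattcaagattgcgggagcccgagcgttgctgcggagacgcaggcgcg
Taf1c: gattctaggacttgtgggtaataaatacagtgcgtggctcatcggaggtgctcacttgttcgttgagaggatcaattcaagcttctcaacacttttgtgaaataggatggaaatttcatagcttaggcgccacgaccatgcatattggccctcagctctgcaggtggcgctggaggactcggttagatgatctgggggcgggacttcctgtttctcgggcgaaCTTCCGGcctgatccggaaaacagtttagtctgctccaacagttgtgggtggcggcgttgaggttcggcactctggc
Polr1a: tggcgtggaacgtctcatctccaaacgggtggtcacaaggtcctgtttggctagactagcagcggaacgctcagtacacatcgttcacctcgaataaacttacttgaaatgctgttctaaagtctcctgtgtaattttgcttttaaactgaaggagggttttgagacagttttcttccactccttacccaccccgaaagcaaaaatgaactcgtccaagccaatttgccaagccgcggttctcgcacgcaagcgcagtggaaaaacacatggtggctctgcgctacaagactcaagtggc
Taf1b: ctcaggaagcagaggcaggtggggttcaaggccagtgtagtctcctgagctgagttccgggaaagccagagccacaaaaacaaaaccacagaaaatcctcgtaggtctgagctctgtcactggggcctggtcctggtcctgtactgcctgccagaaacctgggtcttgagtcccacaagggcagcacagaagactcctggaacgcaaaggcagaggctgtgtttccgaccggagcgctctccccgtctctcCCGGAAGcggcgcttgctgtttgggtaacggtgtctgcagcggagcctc
Rrn3: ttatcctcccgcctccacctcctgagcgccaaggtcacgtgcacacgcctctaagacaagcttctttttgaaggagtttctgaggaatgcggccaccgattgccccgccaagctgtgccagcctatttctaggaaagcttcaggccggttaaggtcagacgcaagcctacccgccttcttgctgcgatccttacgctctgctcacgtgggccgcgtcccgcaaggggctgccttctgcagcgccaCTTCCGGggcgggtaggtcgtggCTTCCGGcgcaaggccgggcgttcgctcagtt

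Of the 5 promoters, that of Polr1c was the richest in GC, at 69.7% with 40 CpG dinucleotides, and that of Polr1a the poorest, at 48.7% with 15. The promoters of Ubtf, not shown, ranged from 46.3% to 82.3%. The median over 32851 promoters of the same length was 52.7% and 7 CpG dinucleotides. The 10 genes have 16 promoters in RefSeq, 6 of them of Ubtf and 2 of Taf1c. The ETS motif was found in 5 of the 16 (1 each of Polr1c, Polr1e, Rrn3, Taf1b and Taf1c) and in 8.86% of all promoters. These 5 genes include members with higher, lower and overlapping levels. The E-box CACGTG, to which Myc and Max bind, was found for Rrn3 alone (7.15% of all promoters), CCAAT for Polr1a, Taf1c and Ubtf (37.4%), and TCTCGCGA for Polr1c alone (0.995%). The palindromic motif of NRF1 was found in no promoter of the 10 genes and in 0.971% of all promoters. All motifs were searched on both strands, and a match is a description of the letters only.

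Among the subunit genes, Polr1a (chromosome 6 of GRCm38, 71909053 to 71984935), which encodes the largest subunit, was at 9.35 and 6.88 TPM in +/+ NSCs and at 10.52 and 6.32 TPM in Chd5-/- NSCs. The 2 Chd5-/- values lie on either side of the 2 +/+ values. The difference between genotypes (Chd5-/- minus +/+, in log2(TPM + 1) here and for every gene that follows) was 0.02, with a 95% interval from -0.88 to 0.92 that includes changes of nearly 1 log2 unit in either direction. Polr1b (chromosome 2, 129100995 to 129126594), the second-largest subunit, was at 8.22 and 5.64 TPM in +/+ NSCs and at 11.14 and 5.58 TPM in Chd5-/- NSCs. Its difference was 0.19, with an interval from -0.85 to 1.23. Polr1e (chromosome 4, 45018583 to 45036565) was at 4.19 and 3.85 TPM in +/+ NSCs and at 7.73 and 3.45 TPM in Chd5-/- NSCs, a difference of 0.31 with an interval from -0.75 to 1.37. For all 3 genes Chd5-/- replicate 1 was the highest of the 4 samples and Chd5-/- replicate 2 the lowest.

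Polr1c (chromosome 17, 46243920 to 46248054), shared with Pol III, was at 16.23 and 10.53 TPM in +/+ NSCs and at 33.01 and 34.93 TPM in Chd5-/- NSCs. The genotypes were well apart, and the Chd5-/- replicates were close to each other. The difference was 1.31 (standard error 0.29, 95% interval 0.57 to 2.05), larger than that of 90.9% of the rows tested, with an unadjusted limma p of 0.0058 and an adjusted p of 0.121. Polr1d (chromosome 5, 147077050 to 147111597), the partner of Polr1c in both enzymes, was at 100.51 and 66.62 TPM in +/+ NSCs and at 147.38 and 126.23 TPM in Chd5-/- NSCs. Its difference was 0.73 (standard error 0.28, interval 0.019 to 1.44, limma adjusted p = 0.200). The genotypes did not overlap, but the +/+ samples were farther from each other than the higher of them was from the lower Chd5-/- sample. The difference was 0.36 under median-of-ratios scaling, 0.14 with GC and length trends taken out and 0.44 without +/+ replicate 2.

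Ubtf (chromosome 11, 102304560 to 102319742) was at 44.76 and 36.28 TPM in +/+ NSCs and at 72.62 and 56.57 TPM in Chd5-/- NSCs. Both Chd5-/- samples were higher, by a difference of 0.66 (standard error 0.25, interval 0.016 to 1.30, limma adjusted p = 0.200). This value was 0.29 under median-of-ratios scaling, and -0.026 with GC and length trends taken out. Rrn3 (chromosome 16, 13780708 to 13814839) was at 67.29 and 67.58 TPM in +/+ NSCs, the closest agreement between replicates of any gene tested among the 10, and at 75.17 and 40.78 TPM in Chd5-/- NSCs. Its difference was -0.28, with an interval from -1.14 to 0.58. The sign rested on Chd5-/- replicate 2, without which the difference was 0.15.

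The 3 SL1 genes differed from each other in pattern. Taf1b (chromosome 12, 24498359 to 24558539), whose product is related to the Pol II factor TFIIB, was at 26.93 and 24.67 TPM in +/+ NSCs and at 17.29 and 23.17 TPM in Chd5-/- NSCs. It was the only one of the 10 with both Chd5-/- samples below both +/+ samples, with Chd5-/- replicate 2 close under the +/+ samples. The difference of -0.35 had an interval from -1.01 to 0.31. It was -0.71 under median-of-ratios scaling, -0.15 without Chd5-/- replicate 1 and -0.55 without Chd5-/- replicate 2. Taf1c (chromosome 8, 119597871 to 119605222) was listed at 0.15 TPM in both +/+ samples and at 1.10 and 0.99 TPM in Chd5-/- NSCs. Its mean of the 4 samples was under the minimum of 1 TPM set for testing. In a fit without a minimum, over 18169 rows, the difference was 0.83 (standard error 0.11, limma adjusted p = 0.194). The depth behind TPM values is unknown, so no counting error can be given for a level this low. An exon of Dnaaf1 on the opposite strand overlaps the annotated exons of Taf1c over 584 bases, and the strand setting used in counting is not given in the sources used here. Taf1d (chromosome 9, 15306214 to 15316991) was at 48.73 and 38.27 TPM in +/+ NSCs and at 60.26 and 29.88 TPM in Chd5-/- NSCs. The Chd5-/- samples enclosed the +/+ samples, and the difference was -0.023 with an interval from -1.003 to 0.96. GENCODE places 8 small nucleolar RNA genes inside Taf1d, and how reads over them were assigned is not given in the sources used here.

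**Figure D2:**
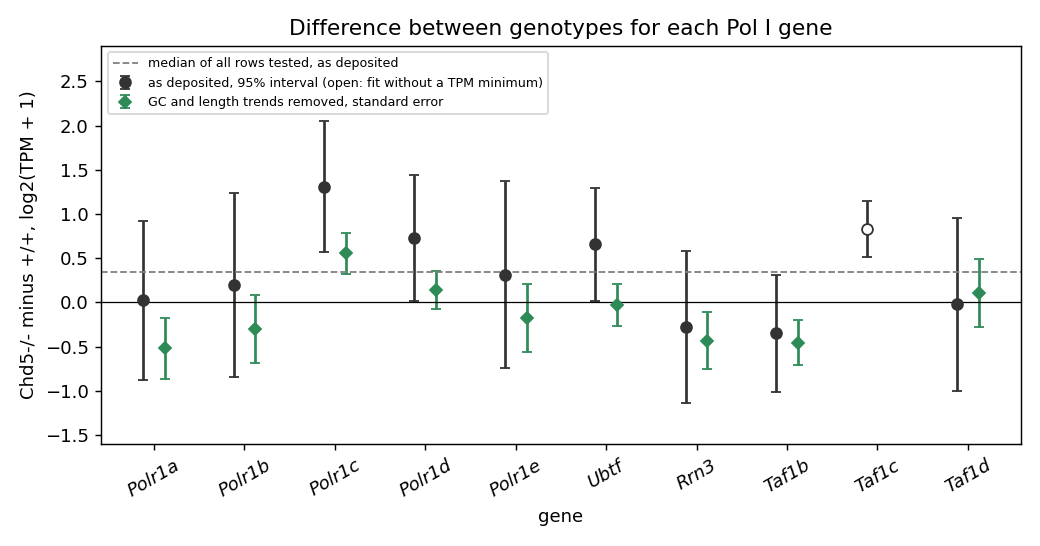
Difference between genotypes (Chd5-/- minus +/+, log2(TPM + 1)) for the 10 genes. Circles are limma estimates from the deposited values with 95% intervals (open circle, Taf1c, from the fit without a minimum TPM), and diamonds, with standard errors, are estimates without the trends in GC content and length. The dashed line is the median of all rows tested, 0.34. Intervals of Polr1c, Polr1d, Ubtf and Taf1c lie above 0 as deposited, and the diamonds of Polr1d and Ubtf lie near 0.

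Among the rows that averaged 1 TPM or more, 7 of 12576 (0.0557%) had an adjusted p-value under 0.05, and 0 of the 9 Pol I genes tested did. All 9 exceeded 1 TPM in every sample. At an unadjusted limma p-value under 0.05, 3 of the 9 (Polr1c, Polr1d and Ubtf) were higher in Chd5-/- NSCs, against 21.9% of all rows, and 0 were lower, against 2.27%. The genotypes did not overlap, with Chd5-/- NSCs higher, for 3 of the 9 against 46.3% of all rows, and with Chd5-/- NSCs lower for 1 of the 9 against 13.0% of all rows. The median difference of the 9 genes was 0.19, below the 0.34 of all rows tested. That median was -0.045 without +/+ replicate 2, against 0.26 over all rows, and -0.17 without Chd5-/- replicate 1, against 0.35. At an unadjusted limma p-value under 0.05, median-of-ratios scaling gave 1 higher and 1 lower (1508 and 1311 of all rows). Removal of the GC and length trends gave 0 in either direction (642 and 727 of all rows).

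The replicates differed from each other for many of these genes. Chd5-/- replicate 2 was below Chd5-/- replicate 1 for 8 of the 10, and +/+ replicate 2 was below +/+ replicate 1 for 8 of the 10. The median difference between the Chd5-/- replicates (1 minus 2) was 0.65 in the 9 genes tested and -0.0021 in all rows, and between the +/+ replicates it was 0.34 and 0.14. For 6 of the 9 the Chd5-/- replicates were farther apart than the genotype means. These counts were not made over all rows, so they are not read as particular to these genes. The replicate difference was 0.65 for Polr1a, 0.88 for Polr1b, 0.97 for Polr1e, 0.87 for Rrn3 and 0.99 for Taf1d. It was -0.079 for Polr1c, 0.22 for Polr1d, 0.35 for Ubtf and -0.40 for Taf1b. A wide gap between the Chd5-/- samples by itself makes the genotypes overlap, so these values and the overlap are not separate results.

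TPM is scaled by transcript length, so levels can be compared between genes. In +/+ NSCs the order from high to low was Polr1d, Rrn3, Taf1d, Ubtf, Taf1b, Polr1c, Polr1a, Polr1b, Polr1e and Taf1c, with means from 83.6 ± 23.96 TPM (SD, n = 2) for Polr1d to 0.15 TPM for Taf1c. The ranges of Polr1d and Rrn3, of Taf1d and Ubtf, and of Polr1a and Polr1b overlapped. In Chd5-/- NSCs Polr1d was again the highest (137 ± 15.0 TPM) and Taf1c the lowest. Ubtf stood above Rrn3, and Polr1c (34.0 ± 1.36 TPM) above Taf1b (20.2 ± 4.16 TPM). The ranges of Ubtf and Rrn3, of Rrn3 and Taf1d, and of Taf1d and Polr1c overlapped, as did those of Polr1a and Polr1b, and of Polr1b and Polr1e. Summed over the 10 genes, the level was 326 and 260 TPM in +/+ NSCs and 436 and 328 TPM in Chd5-/- NSCs.

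Ratios between genes of the same sample do not depend on a factor applied to all genes of that sample. They do keep the trends in GC content and length. With those removed, Ubtf was at -0.026 and Rrn3 at -0.43, against 0.66 and -0.28 as deposited. The ratio of Polr1c to Polr1a was 1.74 and 1.53 in +/+ NSCs and 3.14 and 5.53 in Chd5-/- NSCs. That of Polr1d to Polr1a was 10.7 and 9.68 in +/+ NSCs and 14.0 and 20.0 in Chd5-/- NSCs. Both shared subunits were thus higher relative to the largest subunit in both Chd5-/- samples. By contrast, the ratio of Polr1b to Polr1a stayed between 0.820 and 1.06 in the 4 samples. Polr1d relative to Polr1c was 6.19 and 6.33 in +/+ NSCs and 4.46 and 3.61 in Chd5-/- NSCs. Ubtf relative to Rrn3 was 0.665 and 0.537 in +/+ NSCs and 0.966 and 1.39 in Chd5-/- NSCs. Within SL1, Taf1d relative to Taf1b was 1.81 and 1.55 in +/+ NSCs and 3.49 and 1.29 in Chd5-/- NSCs, and here the Chd5-/- samples lay on either side of the +/+ samples. With 2 samples against 2, an exact permutation test cannot give a p-value below 0.333, so these ratios were not tested. The share of all gene pairs whose ratios separate the genotypes was not counted.

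**Figure D3:**
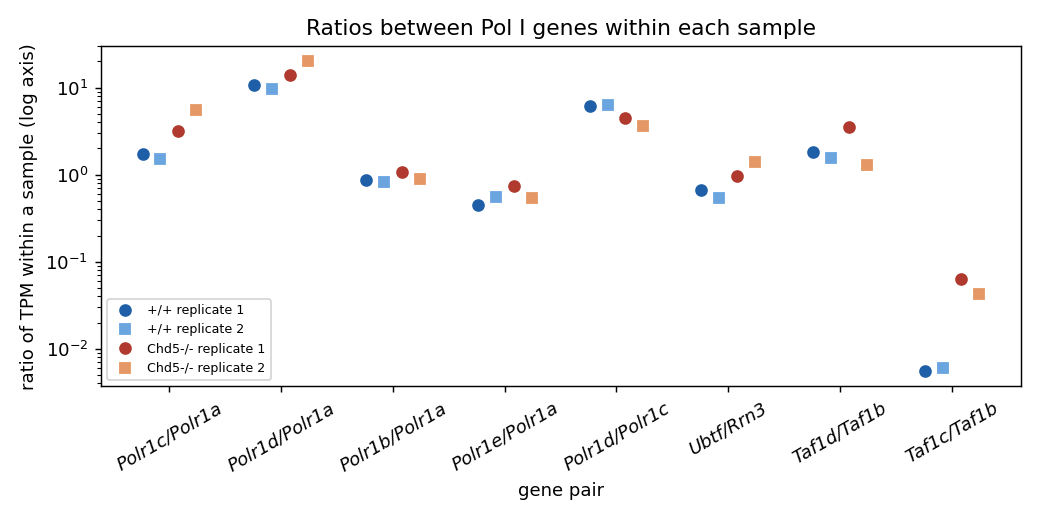
Ratio of TPM between pairs of Pol I genes within each of the 4 samples (log axis). Each point is 1 sample. Polr1c and Polr1d relative to Polr1a, and Ubtf relative to Rrn3, are higher in both Chd5-/- samples, and Polr1d relative to Polr1c is lower in both.

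The differences of the 10 genes went with the GC content of their transcripts. Taf1c had the highest GC content (60.8%), followed by Ubtf (54.1%), Polr1c (53.7%) and Polr1d (51.5%), and these are the 4 genes that were higher in both Chd5-/- samples. Polr1b, Polr1a and Polr1e lay between 50.8% and 51.2%. Rrn3 (46.4%), Taf1b (45.3%) and Taf1d (40.2%) were the lowest in GC content, and all 3 had a difference under 0. Spearman's rho was 0.87 across the 10 genes and 0.60 across 12104 rows, which share libraries and normalization and are not independent replicates. Once the GC and length trends were taken out, Polr1c was at 0.56 (standard error 0.23, limma adjusted p = 0.458), Polr1d at 0.14, Ubtf at -0.026 and Taf1d at 0.11. Polr1a was then at -0.52, Polr1b at -0.30, Polr1e at -0.18, Rrn3 at -0.43 and Taf1b at -0.45. Thus 3 of the 9 were above 0 and 6 below, with a median of -0.18 against -0.028 over all rows.

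**Figure D4:**
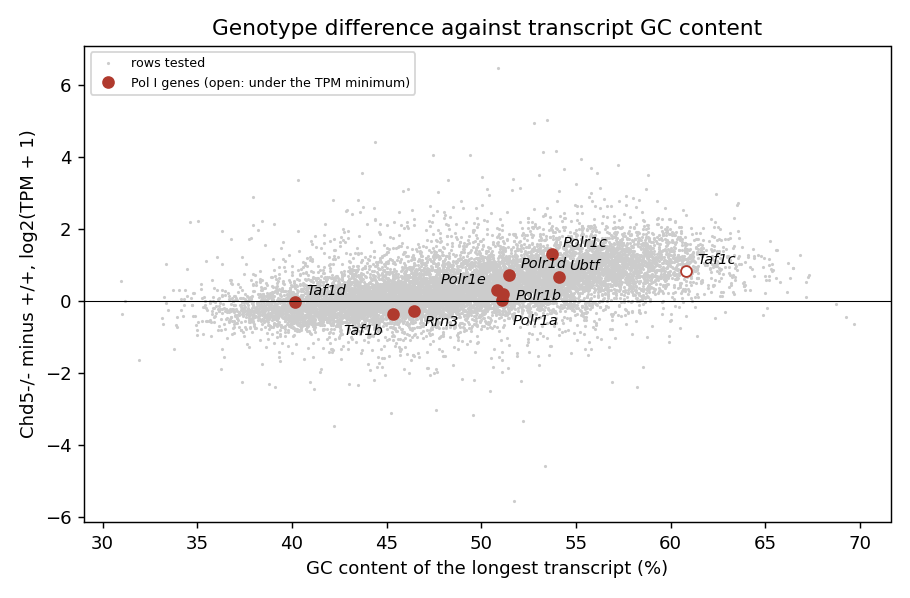
Difference between genotypes (Chd5-/- minus +/+, log2(TPM + 1)) against the GC content of the longest annotated transcript. Gray points are the 12104 rows tested that have a GC value, and red points are the 10 Pol I genes (open circle, Taf1c, under the minimum TPM). The red points follow the upward slope of the gray ones, from Taf1d at 40.2% GC to Taf1c at 60.8%.

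The rest of the Pol I enzyme varied from subunit to subunit. Of the 8 other subunits, which include those shared by all 3 nuclear polymerases, 5 were above and 1 below in both Chd5-/- samples. At an unadjusted p-value under 0.05, 3 were higher and 1 lower. Of all rows tested, 46.3% were above and 13.0% below in both, and 21.9% were higher and 2.27% lower at that p-value. The largest positive difference was that of Polr2f, a small subunit common to the 3 polymerases. It was at 10.84 and 5.61 TPM in +/+ NSCs and at 31.56 and 46.37 TPM in Chd5-/- NSCs, a difference of 2.15 (standard error 0.39, limma adjusted p = 0.120), and 1.48 with the trends removed. The largest negative one was that of Twistnb, which encodes the Pol I stalk subunit that Rrn3 contacts, from 23.75 and 25.61 TPM to 16.24 and 14.91 TPM (-0.63, limma adjusted p = 0.192), and -0.50 with the trends removed. The median of the 8 was 0.74 as deposited and 0.027 with the trends removed.

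Among 16 other factors of rDNA transcription and rDNA chromatin, 10 were above and 1 below in both Chd5-/- samples, with a median difference of 0.45 as deposited and 0.017 with the trends removed. At an unadjusted p-value under 0.05, 3 were higher and 0 lower. The shares of all rows tested, here and for UtpA below, were 46.3% above, 13.0% below, 21.9% higher and 2.27% lower. The largest positive difference was that of Tcof1, whose product treacle binds UBF and Pol I, from 1.66 and 1.25 TPM to 4.48 and 3.39 TPM (1.00, limma adjusted p = 0.171), and 0.10 with the trends removed. The largest negative one was that of Smarca5, the ATPase of the nucleolar remodeling complex that silences rDNA, from 205.77 and 218.18 TPM to 175.73 and 134.04 TPM (-0.46, limma adjusted p = 0.296). The 6 genes of UtpA, which joins the nascent ribosomal RNA precursor and is needed for its transcription, had a median of -0.30. None of the 6 was above in both Chd5-/- samples and 2 were below, with 0 at an unadjusted limma p-value under 0.05. Their ends were Utp15, with a difference of 0.14, and Wdr75, with -0.67, which was at 54.03 and 54.27 TPM in +/+ NSCs and at 48.41 and 23.19 TPM in Chd5-/- NSCs.

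The subunits of the other nuclear polymerases also ranged from higher to lower. Of 8 subunits specific to RNA polymerase II, 5 were above in both Chd5-/- samples and 0 below, with a median of 0.79. Their ends were Polr2i at 1.69 (limma adjusted p = 0.120) and Polr2m at -0.11. Of 11 subunits specific to Pol III, 5 were above and 1 below, with a median of 0.32 and ends at Polr3c (1.01) and Polr3g (-0.58). The list of Pol III initiation factors had 10 genes in the table, among them Maf1, which is a repressor of Pol III instead. Of the 10, 6 were above and 2 below, with a median of 0.70 and ends at Brf2 (1.17) and Gtf3c6 (-0.17). Maf1 was one of those above, at 1.12 with an unadjusted limma p of 0.013, so it enters the counts and medians given here. With the trends removed the 3 medians were 0.31, -0.052 and 0.13. No gene in any of these lists passed the adjusted threshold. The smallest adjusted p-value in them, with limma, was 0.120, and 5, 2 and 5 genes, all higher, had an unadjusted p-value under 0.05. Of all rows tested, 46.3% were above and 13.0% below in both Chd5-/- samples, and 21.9% were higher at that unadjusted p-value.

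**Figure D5:**
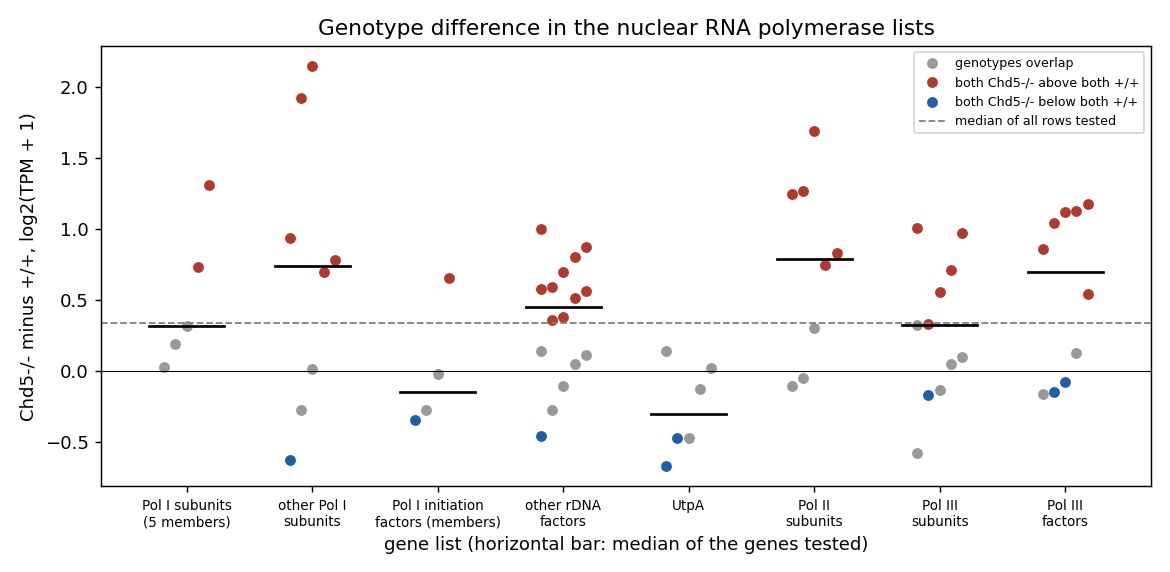
Difference between genotypes (Chd5-/- minus +/+, log2(TPM + 1)) for each gene tested in 8 lists. Points are genes, colored by whether both Chd5-/- samples lie above, below or among the +/+ samples, bars are list medians and the dashed line is the median of all rows tested, 0.34. UtpA and the Pol I initiation factors have the lowest medians (-0.30 and -0.15) and Pol II subunits the highest (0.79).

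The samples were checked against their labels. Chd5 was at 0.39 and 0.37 TPM in +/+ NSCs and at 0.06 and 0.04 TPM in Chd5-/- NSCs, under the minimum for testing. All 9 markers of neural stem and progenitor cells reached 1 TPM, and their summed level was 7999 and 6567 TPM in +/+ NSCs and 3544 and 5901 TPM in Chd5-/- NSCs, most of it Fabp7 and Vim. The 6 astrocyte markers summed to 2129 and 2244 TPM and to 886 and 1753 TPM. Slc1a3 was the largest part of that sum in every sample. Aqp4, Gja1 and Aldh1l1 had differences of 0.97, 0.53 and 0.32. Those of Slc1a3, Gfap and S100b were -1.38, -1.34 and -0.20, and the list median was 0.056. For oligodendrocyte lineage markers the sums were 571 and 631 TPM and 504 and 928 TPM, and for neurons 507 and 518 TPM and 372 and 798 TPM, nearly all of it Map2. Mesenchymal markers summed to at most 0.37 TPM in 3 samples and to 21.8 TPM in Chd5-/- replicate 1. Ependymal markers were at 2.10 and 2.40 TPM and at 8.46 and 5.69 TPM, and the microglial and endothelial markers in the table stayed under 1 TPM in sum. In bulk RNA, a change in the share of cells of a type and a change in RNA per cell cannot be told apart, and the part of these markers in the differences above was not tested. Of 7 proliferation genes, 2 were above and 1 below in both Chd5-/- samples, against 46.3% and 13.0% of all rows. At an unadjusted limma p-value under 0.05 there were 0, against 21.9% higher and 2.27% lower of all rows. The ends were Mki67 (0.78) and Pcna (-0.47). The 20 most abundant rows held 32.4% and 35.6% of TPM in +/+ NSCs and 21.6% and 22.8% in Chd5-/- NSCs, of a total that is fixed in every sample.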

How the data were processed

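The values, in 1 table deposited by the authors, are TPM (transcript abundance scaled for length and depth), with 1 column per sample. Per the submitters' processing notes, mm10, Bowtie2 2.2.3 and RSEM 1.2.20 were used, without their roles. The annotation and the strand setting are not given in the sources used here. All 4 columns were assigned to samples by name and 0 were left out. TPM keeps no record of depth.

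From these values log2(TPM + 1) was computed. The 12576 of 18169 rows that averaged 1 TPM or more entered limma 3.58.1, run in R 4.3.3 (eBayes with a trend, two-sided, no other terms), with Benjamini-Hochberg adjustment over all of them at a threshold of 0.05. No count model was used. Intervals are 95% intervals from the same fit. On the log2(TPM + 1) scale, changes of weakly expressed genes are understated.

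Positions, GC content and length (longest transcript) came from GENCODE M21 (GRCm38), matched for 96.2% of rows tested, and promoters from RefSeq (GRCm38.p6), matched for all 10 genes. Trends were removed by a loess fit (span 0.5), on GC content and log2 length, to how far each value lay from the mean of its row. Alternatives covered the pseudocount, the minimum TPM, the scaling, these trends, the variance model, the replicate number as a block and each sample left out. The fits were tested on simulated data of the same size.

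The 10 genes and all lists were chosen with earlier results of these data known. Genes named are the 10, Chd5, and the largest positive and negative difference in each list. Maf1 was named besides, after its values were seen. The motifs and neighboring genes were chosen after values were seen. Tables and figures were made with Python 3.11.15, pandas 2.3.3, scipy 1.17.1 and matplotlib 3.10.9.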

Additional observations from a re-analysis of the deposited data

How the results depend on the processing

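Of the 10 genes, Polr1c, Polr1d and Taf1b kept their sign in all 16 alternatives, with differences from 0.56 to 1.60, from 0.14 to 1.02 and from -0.71 to -0.15. Changes of the minimum TPM, the replicate blocks and the variance model leave each gene's estimate as it is, so they cannot test a sign. The genotypes do not overlap for these genes, so a pseudocount or the loss of a sample cannot turn the sign either. Only the scalings and the removal of trends could have done so. Ubtf ranged from -0.026 to 0.83. The adjusted p-value stayed above 0.05 for every member in each alternative that tested it, and ranged from 0.065 to 0.759 for Polr1c. Taf1c was tested only without a minimum TPM. The count of all rows past the adjusted threshold was 4 with a pseudocount of 0.1, 0 without a minimum TPM, 1 with quantile normalization and 3 once the GC and length trends were removed. It went from 0 to 1247 with one sample left out, where the lone sample of a genotype is assumed to vary like the pair of the other, so that the spread comes from that pair alone. The counts were 0 without either +/+ sample, 1247 without Chd5-/- replicate 1 and 1086 without Chd5-/- replicate 2. The cause of these shifts was not tested.

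The 9 genes' median was 0.32 with a minimum of 10 TPM (6 genes), and changed sign to -0.13 with median-of-ratios scaling, -0.33 with quantile normalization, -0.018 when samples were rescaled leaving out the 20 top rows and -0.18 with trends removed. Leaving out one sample gave -0.17 to 0.63. The scalings shift all rows together: the median over all rows was 0.34 as deposited, 0.0052 with median-of-ratios scaling, -0.054 with quantile normalization, 0.13 with rescaling and -0.028 with trends removed. The median of the 9 genes was below it in each of these. With a minimum of 10 TPM the median over all rows was 0.19, and that of the 6 genes was above it. Without Chd5-/- replicate 2 the 9 genes were also above, at 0.63 against 0.33 over all rows. Genes with an unadjusted p-value under 0.05 numbered 1 higher and 1 lower under either median-of-ratios or quantile scaling, 1 higher after rescaling or without the variance trend, and 0 with trends removed. Such counts are not given for the 9 genes with 1 sample left out, since the spread there comes from a single pair of samples. Over all rows, 2748 were higher and 285 lower as deposited, 1508 and 1311 with median-of-ratios scaling, and 1103 and 1024 with quantile normalization. They were 1871 and 819 with rescaling, 2861 and 222 without the variance trend, and 642 and 727 with trends removed.

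The values that follow include these shifts of all rows. Polr1a turned to -0.31 with median-of-ratios scaling, -0.56 with quantile normalization, -0.19 with rescaling and -0.52 with trends removed. Polr1b turned to -0.13, -0.41, -0.018 and -0.30 in the same order. Polr1e turned to -0.33 after quantile normalization and -0.18 with trends removed, which also took Ubtf to -0.026 and Taf1d to 0.11. With one sample left out, Polr1a ranged from -0.30 to 0.35, Polr1b from -0.25 to 0.63, Polr1e from -0.17 to 0.80, Rrn3 from -0.71 to 0.15 and Taf1d from -0.52 to 0.47.

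Whether replicate numbers pair the samples is not known from the labels. The differences between replicates 1 and 2 of the genotypes correlated at -0.15 across 12576 rows. This cannot decide it, since differences between single cultures enter the same values. With the number as a replicate block, 0 rows passed the adjusted limma threshold, and 2 of the 9 genes had an unadjusted p-value under 0.05. Both were higher, beside 2111 rows higher and 178 lower of all rows. With trends removed as well, both counts were 0, beside 438 higher and 452 lower of all rows at the unadjusted p-value. The median (-0.18) and each gene were as with trends removed alone. With crossed pairs, added after the data were seen, 5 rows passed and 1 of the 9 genes had an unadjusted p-value under 0.05. It was higher, beside 2808 higher and 284 lower of all rows. Since TPM holds no depth, error could be judged only from the 2 samples of each genotype.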

Other observations

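Several of the 10 genes start close to a neighbor on the opposite strand, and the neighbors were looked at after the values of the 10 were seen. In GENCODE the start of Yipf3, which encodes a Golgi membrane protein, lies 26 bases from that of Polr1c, so the Polr1c promoter shown above spans both starts. Yipf3 was at 8.81 and 5.16 TPM in +/+ NSCs and at 21.19 and 23.61 TPM in Chd5-/- NSCs. Like Polr1c, it was higher in both Chd5-/- samples, with a difference of 1.59 in log2(TPM + 1) and a limma adjusted p of 0.120. No annotated exon is shared between these genes. Xpo5, which lies past the other end of Polr1c, was at 35.00 and 29.70 TPM in +/+ NSCs and at 32.19 and 34.65 TPM in Chd5-/- NSCs, a difference of 0.049.

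The starts of other neighbors also lay within 500 bases. Ptcd3, 303 bases from the start of Polr1a, was at 74.30 and 68.65 TPM in +/+ NSCs and at 59.34 and 40.31 TPM in Chd5-/- NSCs, a difference of -0.54 (limma adjusted p = 0.286) beside 0.02 for Polr1a. Lnx2, 464 bases from the start of Polr1d, was between 2.53 and 2.63 TPM in the 4 samples, beside a difference of 0.73 for Polr1d. 4931406C07Rik, whose exons overlap those of Taf1d over 235 bases, was at 99.17 and 101.92 TPM in +/+ NSCs and at 77.08 and 104.12 TPM in Chd5-/- NSCs. There, as for Taf1d, the Chd5-/- samples enclosed the +/+ samples, but in the opposite order. Chd5-/- replicate 2 was the highest sample for 4931406C07Rik and the lowest for Taf1d. Whether any pair shares regulation was not tested.

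The difference between the Chd5-/- replicates seen in Polr1a, Polr1b, Polr1e, Rrn3 and Taf1d was also present in UtpA. All 6 UtpA genes were lower in Chd5-/- replicate 2 than in replicate 1, with a median difference of 0.77 between the replicates, against 0.085 between the +/+ replicates. Over all rows tested the median between the Chd5-/- replicates was -0.0021, and the share of rows lower in replicate 2 was not counted. Of the 7 proliferation genes, 3 were lower in Chd5-/- replicate 2, with a median of -0.18. Markers of other kinds also differed between these replicates. The 3 mesenchymal markers tested reached the minimum TPM only through Chd5-/- replicate 1, so no median is given for them. Among markers tested, the median difference was -0.98 for 9 of stem and progenitor cells and -0.96 for 6 of astrocytes. It was -1.14 for 7 of the oligodendrocyte lineage and -1.10 for only 3 of neurons. Of these, 2 stem and progenitor cell markers and 1 oligodendrocyte lineage marker went the other way, lower in Chd5-/- replicate 2. So did Stmn2, a neuron marker under the minimum for testing. The part of all these markers in the differences of UtpA and the Pol I genes was not tested.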
